A study of Mus musculus with 4 samples.

Results

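The report covers 10 genes that encode secreted WNT ligands, Wnt2, Wnt2b, Wnt4, Wnt5a, Wnt5b, Wnt6, Wnt7b, Wnt9b, Wnt10a and Wnt11, in mouse ureters in which WNT secretion was blocked. They were 10 of 29924 gene names on the array and were found by name, represented by 11 of its 39429 probes, of which Wnt4 had 2 and each other gene 1. Wildtype NMRI ureters of undetermined sex were taken at E12.5, clipped from kidney and bladder, and cultured for 18 h without serum with 10 µM IWP-2 or with its solvent DMSO as the control. RNA of 1 pool of treated ureters and of 1 pool of control ureters was hybridised together on each of 4 two-colour arrays. Treated RNA was red on arrays 1 and 3 and green on arrays 2 and 4. The study used this short block to look for genes that depend directly on WNT signalling, and the question here is how the genes of the ligands themselves responded. The paper's methods give n = 4 for E12.5, while a figure legend there speaks of 2 pools each. Whether each array carried separate preparations of explants is therefore not settled. The p-values measure the spread between the 4 arrays.

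WNT ligands are lipid-modified by the acyltransferase Porcupine (Porcn) in the endoplasmic reticulum, are carried to the cell surface by Wls, and bind Frizzled receptors on nearby cells, where the canonical branch stabilises beta-catenin and raises TCF/LEF targets such as Axin2. IWP-2 inhibits Porcupine, so it acts on the ligand proteins after translation, while the arrays measured the mRNAs of their genes. In the developing urinary tract Wnt7b and Wnt9b are known as genes of the ureteric epithelium (UE) and its stalk, Wnt11 as a gene of the ureteric bud tips, Wnt4 as a gene of early nephron precursors, Wnt2b as a gene of the renal stroma, and Wnt5a as a mesenchymal ligand gene that signals largely outside the beta-catenin branch.

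Tissue markers and the treatment were looked at first. All 7 epithelium markers and all 6 mesenchyme markers were well above background in both groups on all 4 arrays. So were all 6 nephron progenitor, all 5 ureteric bud tip, all 6 blood and all 6 neural and glial markers. Signal above background therefore cannot tell which tissue was taken. The WNT readout Axin2 had log2 ratios of treated over control of -1.48, -1.68, -1.57 and -1.53 on arrays 1 to 4 and fell by 1.56 ± 0.09 (SD, n = 4; limma adjusted p = 1.23e-05). Testing was limited to genes whose probe exceeded background on all 4 arrays in at least 1 of the groups, which left 22461 genes.

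Each gene other than Wnt4 was read by 1 probe of 60 bases. For Wnt4, the array held one probe starting at transcript base 3748 (mm9, chr4:136855342-136855401) and one starting at base 605. The latter is shown because it allows the only test of whether probes of a member moved alike. Its 60 bases spread over 569 positions of the plus strand (mm9, chr4:136851690-136852258), so that 509 genomic bases between its ends are not in the probe.
Wnt4 probe at transcript base 605: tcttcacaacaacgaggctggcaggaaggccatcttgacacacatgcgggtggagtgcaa

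To show what lies before the start sites of the genes that moved, RefSeq promoter windows (GRCm38.p6) were searched for the TCF/LEF-type letters CTTTGAA and CTTTGAT on both strands in the 250 bases before each annotated start. The table held 7 of the 10 members, with 10 starts in all, and lacked Wnt5a, Wnt7b and Wnt10a. A match was found before 2 of the 10 starts, 1 of Wnt11 and 1 of Wnt5b, and before 7.48% of the 32851 starts of the whole table. Both Wnt11 windows and the matching Wnt5b window are printed, chosen for the match. The match is in capitals, and each window is in the direction of the gene.
Wnt11, upstream start, plus strand, chr7:98834862-98835111: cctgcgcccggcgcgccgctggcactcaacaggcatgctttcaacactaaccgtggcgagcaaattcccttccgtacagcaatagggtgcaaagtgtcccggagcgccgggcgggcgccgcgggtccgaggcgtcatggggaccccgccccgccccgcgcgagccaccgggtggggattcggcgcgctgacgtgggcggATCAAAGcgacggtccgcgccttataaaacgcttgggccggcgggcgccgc
Wnt11, downstream start, plus strand, chr7:98838595-98838844: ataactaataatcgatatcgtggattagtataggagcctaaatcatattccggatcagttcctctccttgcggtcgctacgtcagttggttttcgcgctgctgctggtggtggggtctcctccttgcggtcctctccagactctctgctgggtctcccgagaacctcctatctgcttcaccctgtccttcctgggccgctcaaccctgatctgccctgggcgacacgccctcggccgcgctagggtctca
Wnt5b, start with a match, minus strand, chr6:119449387-119449636: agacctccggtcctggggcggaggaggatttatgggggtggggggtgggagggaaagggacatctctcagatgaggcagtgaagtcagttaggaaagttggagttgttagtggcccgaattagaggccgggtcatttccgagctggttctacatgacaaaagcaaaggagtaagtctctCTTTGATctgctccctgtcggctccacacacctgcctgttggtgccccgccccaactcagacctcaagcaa
The match before Wnt11 lies on the opposite strand, so it appears as the reverse complement of CTTTGAT, and begins 51 bases before the start. The other windows of Wnt5b and those of Wnt2, Wnt2b, Wnt4, Wnt6 and Wnt9b held neither string. Of these, Wnt9b was also higher with IWP-2 and Wnt2 and Wnt4 were lower. A match is a description of the letters and no measured binding site.

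IWP-2 changed the mRNA levels of the WNT ligand genes modestly and in both directions. Wnt2, Wnt4 and Wnt5a were lower and Wnt5b, Wnt7b, Wnt9b and Wnt11 were higher in treated ureters, while Wnt6 and Wnt10a did not pass the test and Wnt2b was not above background. That is 3 lower and 4 higher of 9 tested members, beside 15.0% of all genes tested called lower and 18.1% called higher, 33.1% in either direction (limma, Benjamini-Hochberg adjusted p below 0.05 over all genes). Wnt2 met the background filter through the control group alone. With a filter that asked for both groups, 2 of 8 tested members were lower and 4 higher. The median log2 change was -0.07 over the 9 members and 0.0011 over all genes tested. Each of the 7 called members moved the same way on 4 of 4 arrays. The test rests on the same 4 ratios and favours such genes, so this is no separate support. The largest change, that of Wnt11, was 1.47-fold, so that no member reached 1.5-fold here. With the processed signals of the scanner software Wnt11 (0.59) and Wnt2 (-1.65) passed it, as did Wnt2 with a normexp offset of 10 (-0.80) and without array 1 (-0.62). These values come from bulk RNA, in which fewer cells of a type and less RNA per cell cannot be told apart.

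**Figure D1:**
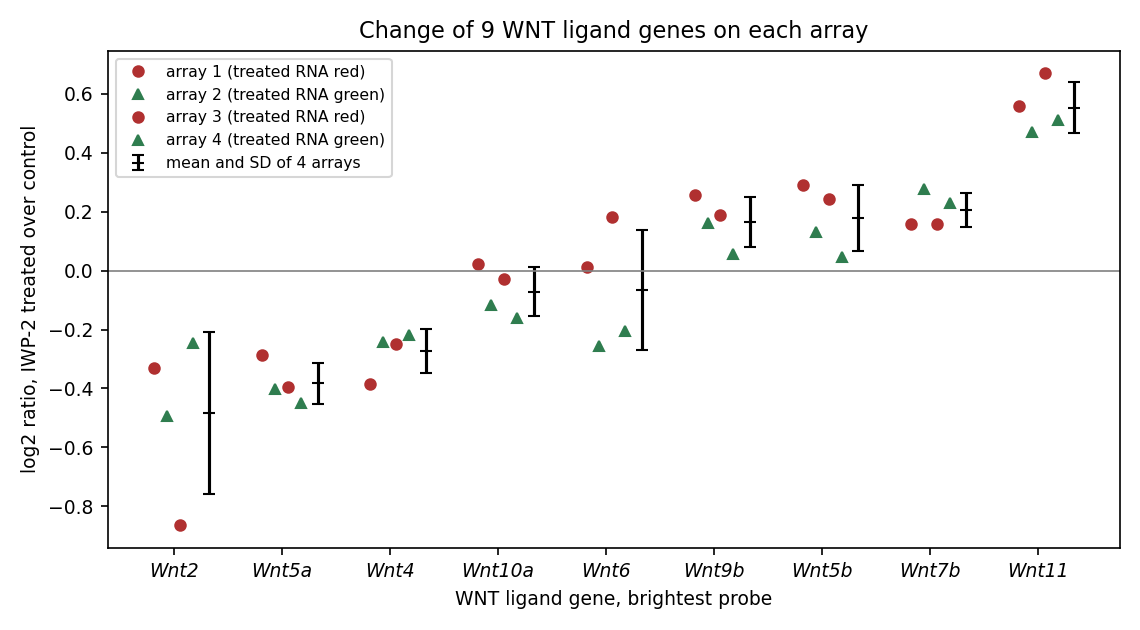
Log2 ratio of IWP-2 treated over control for the 9 tested WNT ligand genes (x axis, ordered by mean change). Each point is 1 array, circles with treated RNA red and triangles with treated RNA green, and the bar is the mean with the SD of 4 arrays. Wnt2, Wnt5a and Wnt4 lie below 0 and Wnt9b, Wnt5b, Wnt7b and Wnt11 above 0 on all 4 arrays, whereas for Wnt6 both circles lie above and both triangles below 0.

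Among the genes that were lower, Wnt5a (mm9, chr14:29336664-29336723) had normalised log2 levels of 10.26, 10.68, 10.69 and 10.40 in control pools and of 9.97, 10.28, 10.30 and 9.95 in treated pools on arrays 1 to 4. The treated pool was the lower of the pair on every array, although the highest treated level just exceeded the lowest control level. The log2 ratios were -0.29, -0.40, -0.39 and -0.45. Wnt5a thus fell by 0.38 ± 0.07 (SD, n = 4; 95% interval -0.48 to -0.28, limma adjusted p = 0.00124).

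Wnt4, which is required for nephron formation, was read by both of its probes. At the brighter probe, at transcript base 3748, control levels were 12.43, 12.93, 12.86 and 12.66 and treated levels were 12.05, 12.68, 12.61 and 12.44. The ratios of -0.38, -0.24, -0.25 and -0.22 gave a fall by 0.27 ± 0.07 (n = 4; 95% interval -0.38 to -0.17, limma adjusted p = 0.00444). At the dimmer probe, at transcript base 605, the ratios were -0.07, -0.35, -0.06 and -0.26, and the level fell by 0.18 ± 0.15 (n = 4; limma over all 29943 probes tested, adjusted p = 0.0155). Both probes were lower with IWP-2 on 4 of 4 arrays. They differed by -0.09 ± 0.20 (brighter minus dimmer, n = 4), which is within the spread between arrays. At the dimmer probe the 2 arrays with treated RNA green gave the larger falls (mean -0.31, against -0.06 with treated RNA red).

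Wnt2 (mm9, chr6:17938994-17939053), best known as a ligand gene of lung mesenchyme, gave the least precise change. Its control levels were 6.95, 6.98, 7.11 and 6.83 and its treated levels were 6.62, 6.49, 6.25 and 6.59. Its control and treated levels did not overlap, unlike those of the other tested members. The treated levels lay around those of Wnt2b (6.36 to 6.59), which was not above background. The lack of overlap therefore does not make this the firmest change. The share of all genes without overlap was not worked out. The probe was well above background in control pools on 4 arrays and in treated pools on 3. The ratios of -0.33, -0.49, -0.86 and -0.25 gave a fall by 0.48 ± 0.27 (n = 4; 95% interval -0.70 to -0.27, limma adjusted p = 0.00909). The size depended on how background was removed, from -0.80 with a smaller normexp offset of 10 to -1.65 with the processed signals of the scanner software. In the deposited table of rounded fold changes it was -0.13 and did not pass (limma adjusted p = 0.147).

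Wnt11 (mm9, chr7:106001985-106002045) rose the most. Its control levels were 10.03, 10.75, 10.47 and 10.35 and its treated levels were 10.59, 11.23, 11.14 and 10.86. Every treated pool was above the control pool of its array, but the treated pool of array 1 was below the control pool of array 2. The ratios were 0.56, 0.47, 0.67 and 0.51, with a mean of 0.55 ± 0.09 (SD, n = 4; 95% interval 0.45 to 0.65, limma adjusted p = 0.000325). Of the 5 ureteric bud tip markers, Ret rose by 0.28 ± 0.09 (limma adjusted p = 0.00652) and the other 4 did not pass, with a list median of 0.11 and mean list levels of 10.91 to 11.12 in control and 11.06 to 11.18 in treated pools. Their part in the rise of Wnt11 was not tested.

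Wnt7b (mm9, chr15:85366896-85366955), an epithelial ligand gene, had control levels of 10.03, 10.48, 10.36 and 10.14 and treated levels of 10.19, 10.75, 10.52 and 10.36. The ratios of 0.16, 0.28, 0.16 and 0.23 were narrow around a mean of 0.21 ± 0.06 (n = 4; 95% interval 0.11 to 0.30, limma adjusted p = 0.00884). Levels varied more between the control pools (SD 0.20) than the treatment moved them on some arrays, so the rise shows within arrays and not in the pooled levels.

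Wnt9b (mm9, chr11:103588882-103588941), which induces nephron progenitors in the kidney, had ratios of 0.26, 0.16, 0.19 and 0.06 and a mean of 0.17 ± 0.08 (n = 4; limma adjusted p = 0.0247). Wnt5b (mm9, chr6:119382550-119382609), the close relative of Wnt5a, had ratios of 0.29, 0.13, 0.24 and 0.05 and a mean of 0.18 ± 0.11 (n = 4; limma adjusted p = 0.0171). Wnt5b thus moved opposite to Wnt5a, and its ratio was above 0 while that of Wnt5a was below 0 on each of the 4 arrays. Both rises were larger on the arrays with treated RNA red. They are the least firm of the 7 calls, since each was lost when array 1, 2 or 3 was left out. Without these arrays the adjusted p of Wnt9b was 0.0985, 0.11 and 0.0609 and that of Wnt5b was 0.0688, 0.0758 and 0.051 (limma).

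Wnt6 and Wnt10a are neighbours on chromosome 1, with probes 19.2 kb apart (mm9, chr1:74831461-74831520 and chr1:74850633-74850692). Wnt6 had ratios of 0.01, -0.26, 0.18 and -0.20 and a mean of -0.07 ± 0.20 (n = 4; 95% interval -0.17 to 0.04, limma adjusted p = 0.307). Its sign followed the dye order, with a mean of 0.10 where treated RNA was red and of -0.23 where it was green. For Wnt10a the ratios were 0.02, -0.12, -0.03 and -0.16, with a mean of -0.07 ± 0.08 (n = 4; 95% interval -0.16 to 0.02, limma adjusted p = 0.207). The intervals leave room for a fall by 0.17 and 0.16, respectively. Wnt2b (mm9, chr3:104748831-104748890) was not well above background in any pool, with levels between 6.36 and 6.59, and no change can be given for it.

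**Figure D2:**
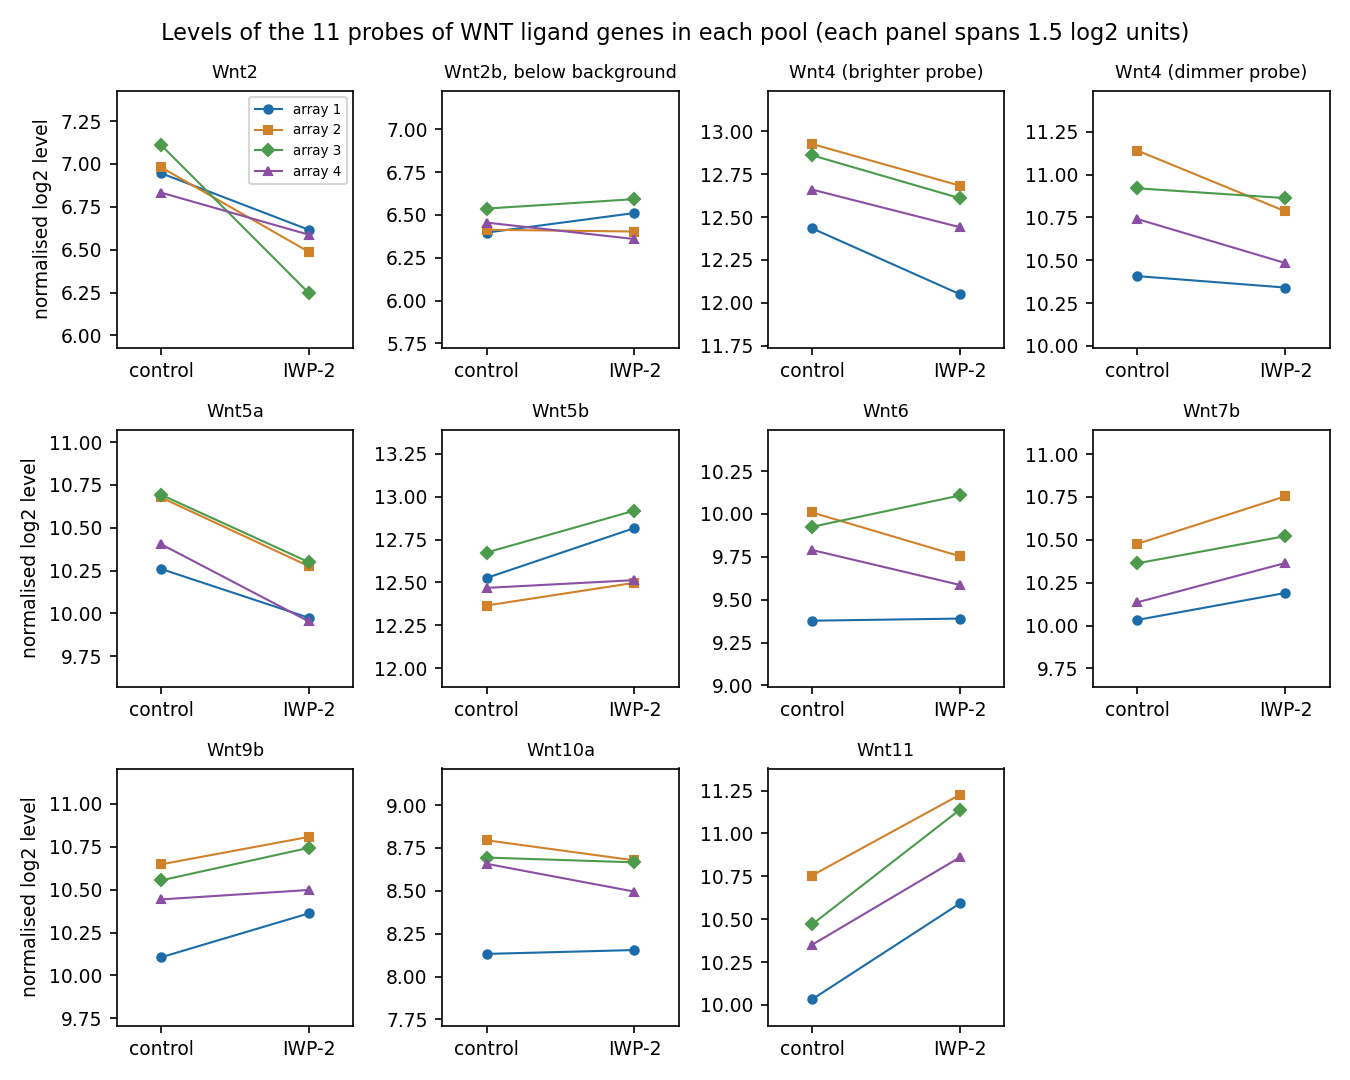
Normalised log2 level (y axis, 1.5 log2 units in every panel) of the 11 probes of WNT ligand genes in the control and the IWP-2 treated pool. Each line joins the 2 pools of 1 array. The lines of Wnt5a and Wnt4 descend and those of Wnt7b, Wnt9b and Wnt11 ascend, while array 1 lies lowest at both ends for 7 of the 10 probes above background.

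The levels also differed between arrays apart from the treatment, and pool and array cannot be told apart here. Array 1 had the lowest level in both groups for both Wnt4 probes, Wnt6, Wnt7b, Wnt9b, Wnt10a and Wnt11, 7 of 10 probes above background, beside 11.5% of all probes tested. The largest gap was seen for Wnt10a, whose control level was 8.13 on array 1 and 8.66 to 8.79 on the other arrays. Wnt5b was lowest on array 2 in both groups instead. The control and treated levels overlapped for 8 of 9 tested members, although 7 members moved alike on every array. The shares of all genes tested that overlapped or moved alike were not worked out. These counts therefore describe the members only. When the 8 channels were taken as separate samples, which ignores the sharing of an array, Wnt2 kept its call (limma adjusted p = 0.00628). The calls of Wnt5a (adjusted p = 0.0657) and Wnt11 (adjusted p = 0.0626) just missed the threshold, and those of Wnt4 (0.271), Wnt5b (0.303), Wnt7b (0.353) and Wnt9b (0.463) were lost (limma).

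Tissue markers moved too, so the changes of the ligand genes were set beside them on the same array. All 7 epithelium markers were higher in treated ureters, beside 18.1% of all genes tested. They ran from 0.24 ± 0.13 for the tight junction gene Cldn7 to 0.34 ± 0.14 for the keratin gene Krt18 (n = 4, limma adjusted p = 0.00862 and 0.00302). The list median was 0.30. The mean level of the list was 14.01 to 14.20 in control and 14.22 to 14.52 in treated pools. Relative to the median epithelium marker, Wnt7b lay at -0.12 ± 0.09 and below it on 4 of 4 arrays, and Wnt9b (-0.16 ± 0.13) and Wnt5b (-0.15 ± 0.15) lay below it on 3 of 4. Wnt6 (-0.39 ± 0.22) and Wnt10a (-0.40 ± 0.14) lay below it on 4 of 4 arrays. The rises of Wnt7b, Wnt9b and Wnt5b were thus no larger than that of the epithelium markers, whereas Wnt11 stood above them by 0.23 ± 0.11 on 4 of 4 arrays. No p is given, since an exact sign-flip test over 4 arrays cannot reach 0.05. The part of epithelial cells in these changes was not tested.

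**Figure D3:**
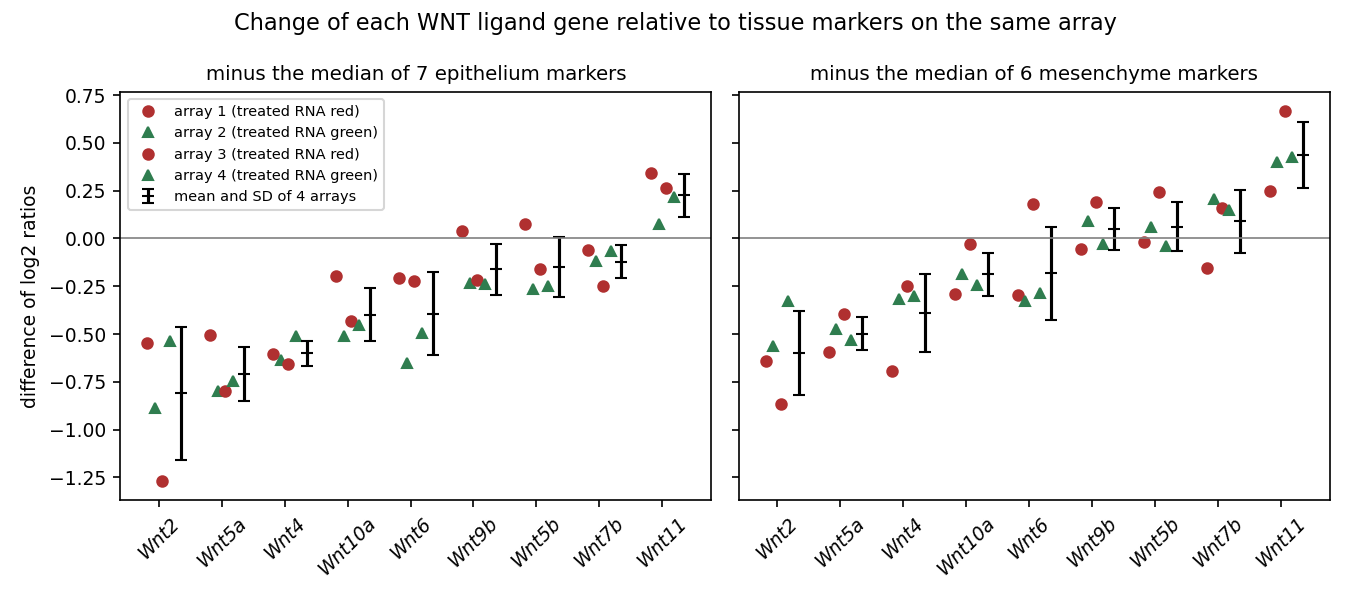
Log2 ratio of each WNT ligand gene minus the median log2 ratio of 7 epithelium markers (left) or 6 mesenchyme markers (right) on the same array. Points are arrays, circles with treated RNA red and triangles with treated RNA green, and bars are the mean and SD of 4 arrays. Only Wnt11 lies above 0 on all 4 arrays in both panels, and Wnt2, Wnt5a, Wnt4 and Wnt10a lie below 0 on all 4 arrays in both.

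Of the 6 mesenchyme markers, the pericyte and mesenchyme receptor gene Pdgfrb rose by 0.80 ± 0.07 (n = 4; limma adjusted p = 9.34e-05) and 5 did not pass, with a list median of 0.11 and mean list levels of 15.93 to 16.06 in control and 16.12 to 16.25 in treated pools. Relative to the median mesenchyme marker, Wnt5a lay at -0.50 ± 0.09, Wnt2 at -0.60 ± 0.22 and Wnt4 at -0.39 ± 0.20, each below it on 4 of 4 arrays. The part of mesenchymal cells in these falls was not tested. Wnt11 lay at 0.44 ± 0.17 and above it on 4 of 4 arrays, while Wnt7b (0.09 ± 0.16), Wnt9b (0.05 ± 0.11) and Wnt5b (0.06 ± 0.13) lay within 1 SD of the mesenchyme markers.

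Markers of kidney and other cells also differed between the groups. Of 6 nephron progenitor markers 5 were higher, from Cited1 (0.16 ± 0.09, adjusted p = 0.0428) to Six2 (1.14 ± 0.27, adjusted p = 0.000542), and Crym fell by 0.96 ± 0.45 (adjusted p = 0.0029), with mean list levels of 11.43 to 11.65 in control and 11.70 to 11.76 in treated pools (limma). Of 5 renal vesicle markers, which are expressed where Wnt4 is active in the kidney, Lhx1 (0.19 ± 0.10, adjusted p = 0.0139) and Pax8 (0.40 ± 0.25, adjusted p = 0.0186) were higher and 3 did not pass (limma). The list ran from -0.17 to 0.40 with a median of 0.11, so its genes did not move alike. The paper reports raised Lhx1 and Pax8 in the UE of ureters without mesenchymal Ctnnb1, so they are not particular to renal vesicles. Calls higher were also made for 1 of 3 renal stroma markers (Foxd1, 0.31 ± 0.11), 4 of 6 endothelium markers (from Kdr, 0.15 ± 0.10, to Cldn5, 0.37 ± 0.12) and 4 of 6 blood markers (from Hbb-b1, 0.27 ± 0.18, to Hba-a1, 0.30 ± 0.27). Over all genes tested, 18.1% were called higher. Of the neural and glial markers, Stmn2 rose by 0.34 ± 0.11 (limma adjusted p = 0.0034). The part of these cells in the changes of the ligand genes was not tested.

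The remaining WNT genes place the ligands in their pathway. Of 9 other WNT ligand genes, 6 were above background. Wnt9a, which had ratios of 0.35, 0.47, 0.65 and 0.27, rose by 0.44 ± 0.17 (n = 4; limma adjusted p = 0.00362), and Wnt8b rose by 0.28 ± 0.24 (adjusted p = 0.0336). Wnt1 (0.02 ± 0.05), Wnt7a (-0.04 ± 0.04), Wnt10b (0.02 ± 0.10) and Wnt16 (-0.02 ± 0.13) did not pass. Over all 15 WNT ligand genes tested, 3 were therefore lower and 6 higher, beside 15.0% and 18.1% of all genes tested. Of the 3 lower, Wnt2 met the background filter through the control group alone.

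Porcn, which encodes the enzyme that IWP-2 inhibits, had ratios of 0.12, 0.01, 0.05 and -0.12 and a mean of 0.01 ± 0.10 (n = 4; 95% interval -0.09 to 0.12, limma adjusted p = 0.851). For Wls, the carrier of acylated WNT ligands, the ratios of -0.25, 0.33, -0.17 and 0.18 changed sign with the dye order, with a mean of 0.02 ± 0.28 (n = 4; limma adjusted p = 0.749). Over all genes tested, 15.0% were called lower and 18.1% higher. Of the 10 genes for processing and secretion, 2 were lower and 3 higher. Of 16 receptor genes, 4 were lower, from Ror1, which binds WNT5A (-0.28 ± 0.14, adjusted p = 0.00327), to Fzd10 (-2.30 ± 0.12, adjusted p = 2.79e-06), and 2 were higher (limma).

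By contrast, 7 of 9 WNT pathway readouts were lower, from Lgr5 (-0.44 ± 0.12, adjusted p = 0.00223) to Sp5 (-2.72 ± 0.28, adjusted p = 1.72e-05), with a list median of -1.47 (n = 4; limma). The medians of the 9 tested ligand genes named here, of the other ligand genes, of the processing genes and of the receptors lay between -0.07 and 0.02. The readout list thus fell, while the ligand genes were split in direction.

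**Figure D4:**
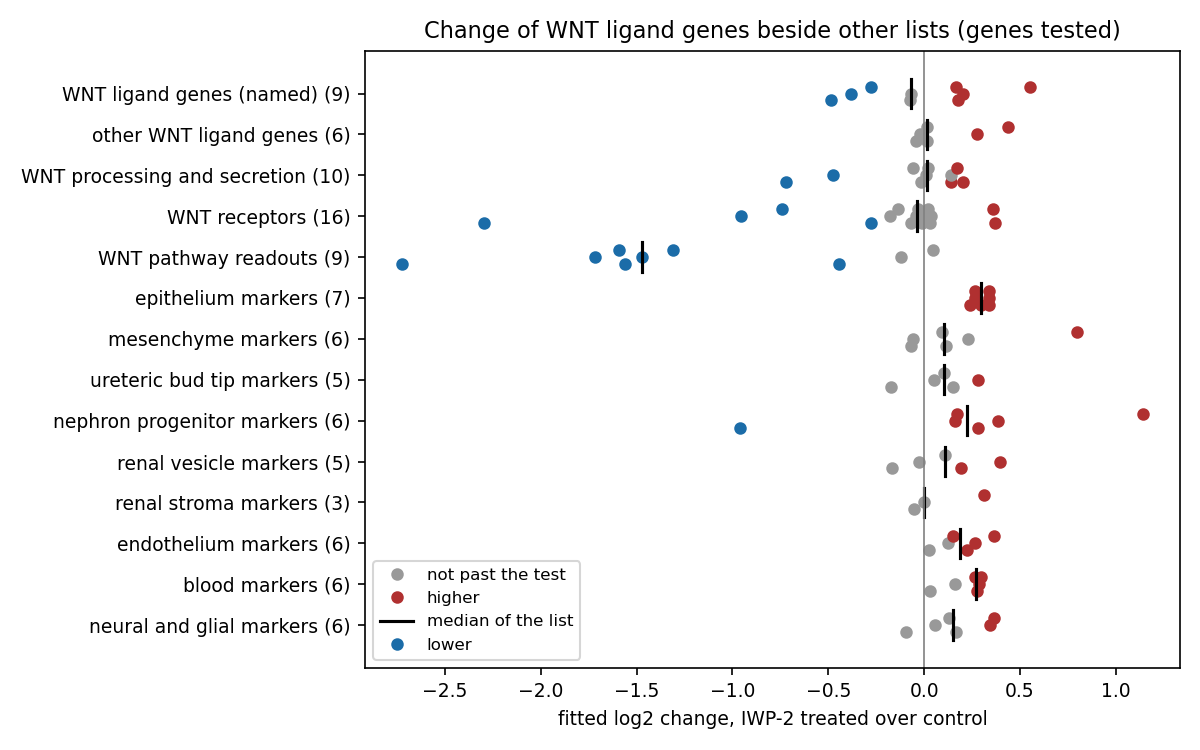
Fitted log2 change of IWP-2 treated over control (x axis) for each tested gene of the WNT and marker lists (y axis, number of genes tested in brackets). Points are genes, blue where lower, red where higher and grey where not past the test, and the black bar is the median of the list. The WNT ligand genes spread from -0.48 to 0.55 around 0, while the median of the pathway readouts is at -1.47 and all epithelium markers lie between 0.24 and 0.34.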

How the data were processed

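RNA of pools of IWP-2 treated and of control ureters was measured on 4 two-colour Agilent arrays of 1 slide and 1 scan. The deposited scanner files hold spot intensity and local background per channel (Agilent Feature Extraction 10.7.3.1). A deposited series table, by its values, holds signed fold changes rounded to 1 decimal, a score whose normalisation is not given in the sources used here. Its direction matched that of the processed signals (r = 0.906 to 0.913 per array, column medians 1).

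Here, intensities were background corrected by normexp (offset 50) and loess normalised (span 0.3), with control spots at weight 0, using limma 3.58.1 in R 4.3.3. The 4 spots of a probe were averaged without outlier-flagged spots. Log2 ratios of treated over control were fitted with a dye term by lmFit and eBayes, Benjamini-Hochberg adjusted over all genes and tested on simulated data. A probe counted as above background where more than 0.5 of its spots were, and the brightest such probe stood for a gene. Levels are log2 channel values after Aquantile. The number of arrays limits the precision. Named genes are all 10 members, the other WNT ligand genes above background, Porcn, Wls, Axin2, and the called gene with the largest and the smallest change of each other list. Crym was added after its value was seen, and 1 marker gene is not reported here. The members and lists were chosen with earlier results of these data known. Protein sequences were not used here. Alternatives are given in the closing section.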

Additional observations from a re-analysis of the deposited data

How the results depend on the processing

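Of 9 tested WNT ligand genes, all kept their direction under the 11 alternatives and on leaving out each array in turn, and calls were lost or gained as follows (log2 change, limma adjusted p). Centring each array on the median gave 2 genes higher and lost Wnt5b (0.16, 0.0645) and Wnt9b (0.16, 0.0572). The fit without a dye term also gave 2 higher and lost Wnt5b (0.18, 0.054) and Wnt9b (0.17, 0.0503). Calls fell among all genes too, from 3360 lower and 4069 higher in the main fit. They were 3126 lower and 3120 higher with centring, and 2551 and 2966 without a dye term. The series table, rounded to 1 decimal, gave 2 higher and lost Wnt2 (-0.13, 0.147), Wnt5b (0.17, 0.0812) and Wnt9b (0.17, 0.0812). It called Wnt10a (-0.069, 0.00751), and among all genes 2050 lower and 1833 higher. Rounding can narrow the spread between arrays, so that call of Wnt10a is not firm. Without the replicate block, with the 8 channels as separate samples, 1 ligand gene was lower and 0 higher, with Wnt4 (-0.27), Wnt5a (-0.38), Wnt5b (0.18), Wnt7b (0.21), Wnt9b (0.17) and Wnt11 (0.55) not past the test (of the 4 otherwise higher, 1 at an unadjusted p below 0.05), and 2067 genes lower and 2039 higher. Leaving out 1 array gave 3 lower and 2 to 4 higher ligand genes, and among all genes from 2177 to 2811 lower and from 2879 to 3348 higher; Wnt5b ranged from 0.16 to 0.20 and Wnt9b from 0.14 to 0.19. Wnt6, which never passed the test, was -0.066 over 4 arrays, -0.11 without array 3 and -0.023 without array 1. With 1 array left out, the lone array of a dye order is assumed to vary like the others. The processed signals, an offset of 10, no filter, the mean of a gene's probes, eBayes with trend and robust moderation and the median of spots changed no call. Under the stricter filter Wnt2 was not tested and the other 8 kept their calls. The value of Wnt2 was -1.65 with the processed signals. Changes relative to markers moved by less than 1 SD with the mean of the markers. Against the mesenchyme markers this turned the sign of Wnt5b (0.062 to -0.0074) and Wnt9b (0.049 to -0.020). All arrays shared 1 slide and scan, so a block for these was not run. The cause of these shifts was not tested. Dim signal limits Wnt2 and Wnt2b. In 61 sets of 4 values, of members and other named genes, no array stood apart by Dixon's criterion.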
